A study of Mus musculus with 2 samples.

Results

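The genes described here act in G2 phase and mitosis, the part of the cell cycle in which a cell with copied DNA prepares to divide, separates its chromosomes and splits. They form a list of 49 genes, grouped by role into 5 classes: cyclins and kinases, checkpoint, kinesins, centromere, and cytokinesis. A gene was taken as measured when the value table held a probe set annotated to that gene alone, and this held for 46 of the 49, out of 14860 genes in the whole table. The cyclin B1 gene Ccnb1, the kinesin gene Kif14 and the centromere protein gene Cenpf had no such probe set and are not analysed here. The list was chosen with earlier results of these data known.

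RNA came from mouse tracheal epithelial cells (MTECs), cultured cells of the windpipe lining, of wild-type (Gprc5a+/+) and of Gprc5a knockout (Gprc5a-/-) mice. Gprc5a encodes an orphan G protein-coupled receptor that is induced by retinoic acid. Mice of both genotypes were 3 weeks old and had a mixed C57 BL/6 and 129sv background, and cells of both genotypes received no treatment. Both cultures grew exponentially in K-SFM, a serum-free keratinocyte medium, with epidermal growth factor at 5 ng/ml and bovine pituitary extract at 50 µg/ml. The labels do not give the number of mice behind a culture, the passage of the cells or the cell cycle stage on harvest. Each genotype is 1 sample on 1 Affymetrix array, so there is no error, no test and no p-value, and each difference below describes these 2 samples without a replicate check.

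Values are the deposited log2 values, and differences are given as knockout minus wild type, so that negative means lower in the knockout. The deleted gene, Gprc5a, read 9.49 in wild-type and 4.05 in knockout cells. Basal cell markers, which define the stem-like cells that grow in such cultures, were bright in both samples: the basal keratin gene Krt5 was at 12.71 and 12.62, and the transcription factor gene Trp63 at 10.95 and 10.76. Over all 11 basal markers, 10 lay above 6.75, the median level of all probe sets with a gene name, which serves below as the level filter. The basal list's summed linear level was 35099 in wild-type and 29476 in knockout cells. Its desmosomal genes Dsc3 and Dsg3 had differences of -4.15 and -1.03, while Krt15, Cdh3 and Krt14 were higher, at 0.69, 0.37 and 0.10. Of 5 immune, 5 endothelial and 9 fibroblast markers, none had a mean level above the filter, and the leukocyte gene Ptprc was at 3.13 and 3.09. In the fibroblast list 7 of 9 markers were lower in the knockout, and the rise of its summed linear level from 300.2 to 609 came from Postn, at 4.28 and 8.46: without it the other 8 summed to 281 and 256. Of 6 ciliated markers, 5 were in both samples at or below 5.05, the background level set by the 95th percentile of 799 olfactory and vomeronasal receptor genes, and the summed level of 154 and 591 was mostly that of Foxj1, at 6.22 and 8.97, with 78.9 and 90.8 for the other 5. The club cell list summed to 2051 and 3571, with 3 of 6 markers lower, its secretoglobin gene Scgb1a1 at 2.35 and 2.30, and Cyp2f2 at 6.48 and 9.63. Its brightest gene was Cbr2, at 10.90 and 11.42, and without Cyp2f2 the list summed to 1962 and 2781. Of its 6 markers, 4 were at or below the background level in both samples. So were 3 of the 5 immune, 4 of the 5 endothelial and 5 of the 9 fibroblast markers. Other markers of these lists lay between background and filter, such as Cd68 at 6.63 and 6.67, Egfl7 at 6.46 and 6.13, and Col1a1 at 6.15 and 6.09. Among 7 general epithelial markers Krt18, a keratin of simple epithelia, read 5.15 in wild-type and 11.61 in knockout cells and the claudin gene Cldn7 5.66 and 8.19, while the cadherin gene Cdh1 was at 12.19 and 12.25. The summed epithelial level was 15319 and 18083, and 15284 and 14961 without Krt18. The part of these marker differences in the results below was not tested.

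As background, entry into mitosis is driven by cyclin-dependent kinase 1 bound to its cyclins, helped by Polo and Aurora kinases and by CDC25 phosphatases that remove inhibitory phosphates from it. The spindle checkpoint then holds cells until every chromosome is attached, after which the anaphase-promoting complex destroys cyclin B and securin and the cell divides. The mRNAs of most of these genes are scarce in G1 and build up towards mitosis, so their level in a culture reads both the share of cells in that phase and the amount of mRNA per cell. In bulk RNA those possibilities cannot be told apart.

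The G2 and mitosis genes were lower in the knockout sample almost throughout. Of the 46 measured genes, 44 had a lower value in the knockout and 2 a higher one, whereas 54.0% of all genes and 48.4% of the 7626 genes above the level filter were lower. The median difference was -0.70 on the log2 scale, a 1.63-fold lower level, beside medians of -0.03 over all genes and 0.01 over genes above the filter. All 46 had a mean level above the filter, which the rule for a measured gene did not require. None was at or below the background level of 5.05 in either sample. The differences ran from -1.67 for Kif2c to 0.44 for Plk4, with the central 50% between -0.89 and -0.45.

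The shift was broad and of moderate size. A level at least 1.5-fold lower was found for 30 of the 46 genes, against 6.14% of all genes and 6.69% of those above the filter. A level at least 2-fold lower was found for 7 genes, against a background of 2.11% in both sets. These 7 were Kif2c, Cdca8, Cdc25b, Cenpa, Cdc20, Bub1b and Nek2, the last at 2.01-fold, and the next gene, Ttk, was 1.95-fold lower. None was 1.5-fold higher, a size reached by 8.08% of all genes and 9.66% of those above the filter. Among the genes above the filter, the lowest 10% lay under a difference of -0.46, and 34 of the 46 fell there. Only Cdk1 and Ccna2 were within 0.25 of no difference, a band that held 53.2% of the genes above the filter.

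**Figure D1:**
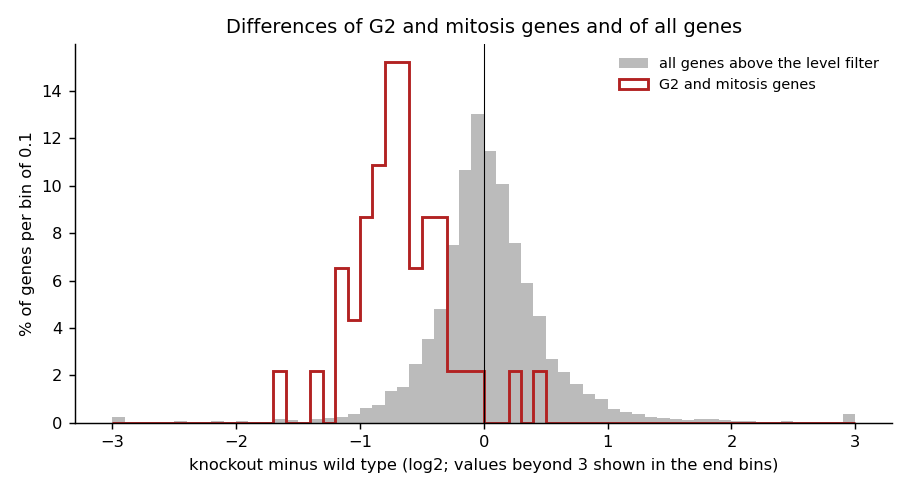
Share of genes (vertical axis, % per bin) by the knockout minus wild-type difference (horizontal axis, log2). Grey bars are the 7626 genes above the level filter, centred near 0, and the red outline is the 46 G2 and mitosis genes, centred at -0.70 with 2 genes to the right of 0.

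The promoters of these genes were also examined for the motifs known from late cell cycle genes. The list is made of such genes, so a high share of motifs goes with the choice of list. It does not depend on the values of the 2 samples. As background, the cell cycle homology region (CHR) is bound through LIN54 by the MuvB core, which joins with B-MYB and FOXM1 to activate these genes in G2 and with E2F4 and the pocket proteins p107 and p130 to repress them in resting cells. The CCAAT box upstream of it is bound by the NF-Y factor. Promoter sequences came from RefSeq on build GRCm38.p6, from 250 bases before to 50 bases after the annotated start, and 39 of the 46 genes had an entry. The letters searched on either strand were TTTGAA or TTCGAA for the CHR, CCAAT for the NF-Y box, and TTTGGCGC or TTTCGCGC for an E2F site, and CHR and CCAAT matches may share bases. Matches are descriptions of letters and not evidence of binding.

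CHR letters were found in 31 of the 39 promoters (79.5%), against 19.2% of all 32851 promoters of the same length and 16.3% of the measured genes above the filter. CCAAT letters were found in 29 (74.4%), against 37.4% of all promoters and 43.5% of those of genes above the filter. Both were present in 27 (69.2%), against 7.52% and 6.88%. E2F letters were in 3, those of Kif15, Kif18a and Cdk1 (7.69%, against 0.813% and 2.1%). In a window chosen after the positions were seen, from 60 bases before to 30 bases after the start, 24 genes (61.5%) had CHR letters, against 5.19% of all promoters.

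Members with and without CHR letters had similar medians. The 31 genes with them had a median difference of -0.70, and the 8 without, Nek2, Melk, Nusap1, Cenpe, Kif18a, Birc5, Mad2l1 and Plk4, had -0.75. Outside the list, the 991 genes above the filter with CHR letters had a median difference of 0.018 and those without had 0.017. The 405 such genes with CHR and CCAAT letters had a median of -0.028, with 53.3% lower, and the rest had 0.020, with 47.6% lower. The 129 with E2F letters had a median of -0.086, with 58.9% lower, and those without had 0.019, with 47.8% lower.

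The promoters below are those of the 3 lowest and the 3 highest differences among genes with CHR letters, shown to let both ends of the list be compared. Each runs 5′ to 3′ from 250 bases before to 30 bases after the start, with CHR and CCAAT matches, on either strand, in capitals. Kif2c (chr4:117178743-117179022, minus strand) encodes a kinesin that takes microtubules apart at centromeres, and read 9.76 in wild-type and 8.10 in knockout cells. Cdca8 (chr4:124936888-124937167, minus strand) encodes borealin, a subunit of the chromosomal passenger complex, and was at 8.76 and 7.45. These are the lowest differences of the list, and they differ in promoter content: Kif2c had 1 CHR match on the reverse strand and no CCAAT, while Cdca8 had CHR letters that share a base with the last of 4 CCAAT matches. Cdc25b (chr2:131186698-131186977, plus strand) encodes a phosphatase that activates CDK1, and was at 8.61 and 7.46. At the other end, Kif20b (chr19:34922108-34922387, plus strand), a kinesin of cytokinesis, was at 8.95 and 8.68, with CHR letters repeated in tandem just after the start. Cdk1 (chr10:69352883-69353162, minus strand), the mitotic kinase itself, was at 11.54 and 11.34. Ect2 (chr3:27153825-27154104, minus strand), the exchange factor that activates RhoA at the division plane, was at 10.25 and 10.54, a higher knockout value although its promoter carries CHR and CCAAT letters.
Kif2c: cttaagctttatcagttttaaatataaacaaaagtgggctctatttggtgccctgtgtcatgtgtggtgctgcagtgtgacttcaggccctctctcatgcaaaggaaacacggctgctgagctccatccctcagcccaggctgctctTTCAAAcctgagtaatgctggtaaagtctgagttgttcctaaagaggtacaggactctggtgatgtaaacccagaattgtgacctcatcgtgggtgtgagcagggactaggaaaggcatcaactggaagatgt
Cdca8: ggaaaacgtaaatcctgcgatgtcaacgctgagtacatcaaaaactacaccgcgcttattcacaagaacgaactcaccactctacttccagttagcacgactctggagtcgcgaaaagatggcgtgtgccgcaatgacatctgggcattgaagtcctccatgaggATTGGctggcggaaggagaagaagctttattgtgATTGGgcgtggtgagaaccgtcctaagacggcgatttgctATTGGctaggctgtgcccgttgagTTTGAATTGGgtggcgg
Cdc25b: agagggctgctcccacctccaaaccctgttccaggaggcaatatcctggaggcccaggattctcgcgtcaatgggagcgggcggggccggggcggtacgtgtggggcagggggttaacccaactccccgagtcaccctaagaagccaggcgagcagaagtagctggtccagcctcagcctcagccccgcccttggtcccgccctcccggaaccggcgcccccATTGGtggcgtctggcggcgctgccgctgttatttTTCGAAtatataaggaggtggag
Kif20b: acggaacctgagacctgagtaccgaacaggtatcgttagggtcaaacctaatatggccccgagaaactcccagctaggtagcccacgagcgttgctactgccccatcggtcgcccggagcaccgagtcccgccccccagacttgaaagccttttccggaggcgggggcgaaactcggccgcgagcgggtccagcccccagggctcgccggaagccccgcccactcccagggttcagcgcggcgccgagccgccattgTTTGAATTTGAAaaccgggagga
Cdk1: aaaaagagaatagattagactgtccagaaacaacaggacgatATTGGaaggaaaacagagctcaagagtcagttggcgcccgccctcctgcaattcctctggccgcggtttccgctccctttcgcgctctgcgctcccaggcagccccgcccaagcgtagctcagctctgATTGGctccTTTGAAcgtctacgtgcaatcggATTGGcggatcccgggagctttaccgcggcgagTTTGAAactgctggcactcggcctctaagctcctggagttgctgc
Ect2: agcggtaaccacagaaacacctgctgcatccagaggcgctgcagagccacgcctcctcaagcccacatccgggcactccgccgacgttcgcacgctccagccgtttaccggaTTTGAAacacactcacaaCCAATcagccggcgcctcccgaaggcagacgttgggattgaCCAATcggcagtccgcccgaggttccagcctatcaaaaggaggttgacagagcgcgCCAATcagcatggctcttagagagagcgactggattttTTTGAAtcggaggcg

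**Figure D2:**
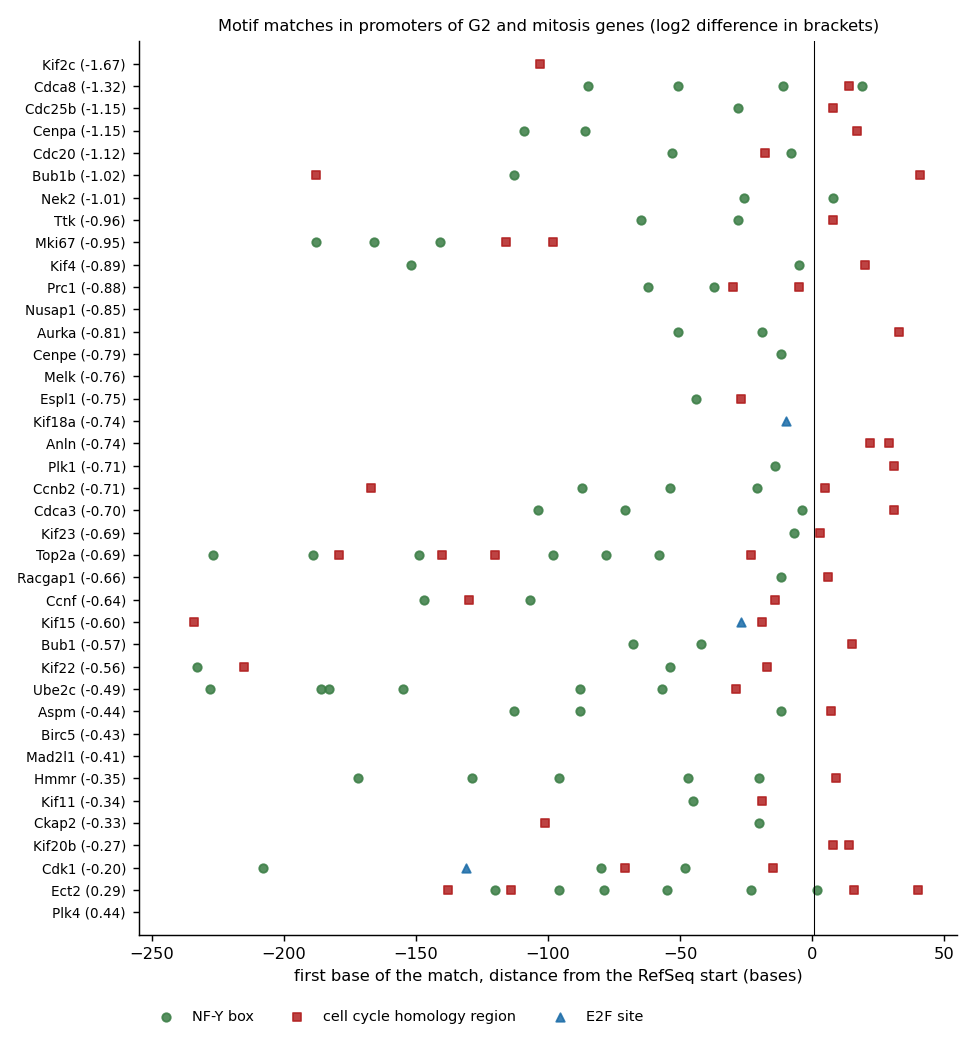
Motif matches (points) in the RefSeq promoters of 39 G2 and mitosis genes, by distance of the match's first base from the annotated start (horizontal axis, bases) and with genes ordered by difference, lowest at the top (log2 difference in brackets). Red squares (CHR) gather near the start in rows throughout the order, green circles (NF-Y box) lie mostly upstream of it, and Ect2 and Prc1 show matches from each of their 2 annotated starts.

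Among cyclins and kinases, 12 of 13 measured genes were lower, 10 of them by at least 1.5-fold, with a median difference of -0.71. Cdc25b was 2.22-fold lower. Nek2, a kinase that separates centrosomes, read 8.97 in wild-type and 7.96 in knockout cells. The partner phosphatase gene Cdc25c was at 7.70 and 6.77, a 1.91-fold lower level. Cdk1 differed little, at 1.15-fold lower, and Ccna2, cyclin A2, which acts from S phase to early mitosis, was at 11.01 and 10.94. Ccnb2, cyclin B2, which acts in mitosis with the same kinase, was at 10.63 and 9.92, a 1.63-fold lower level.

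Most mitotic kinases lay near the middle of the list. Aurka, the centrosomal Aurora A kinase, had a difference of -0.81. Plk1, Polo-like kinase 1, was at 10.43 and 9.72. Its other probe set, at 4.43 and 3.93, lay below the background level of 5.05 in both samples, so its difference is not read. Melk and Pbk, kinases that are abundant in dividing cells, had differences of -0.76 and -0.88. Cdca3, which promotes mitotic entry, and Ccnf, the F-box protein cyclin F, had differences of -0.70 and -0.64. Plk4, the kinase that starts centriole duplication, was the exception, at 7.22 in wild-type and 7.66 in knockout cells, 1.36-fold higher.

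All 7 checkpoint and anaphase genes were lower, with a median difference of -0.75. Cdc20, which activates the anaphase-promoting complex and is the target of the checkpoint, read 8.53 in wild-type and 7.41 in knockout cells, 2.17-fold lower. Bub1b, the checkpoint kinase-like protein BUBR1, was at 9.24 and 8.22, 2.03-fold lower. These were the members with differences beyond 2-fold in the class. Ttk, the MPS1 kinase that starts checkpoint signalling, had a difference of -0.96, Espl1, the separase that cuts cohesin, one of -0.75, and the checkpoint kinase gene Bub1 one of -0.57. The differences nearest 0 were those of Ube2c, the ubiquitin-conjugating enzyme of the anaphase-promoting complex, at 8.92 and 8.43, and of Mad2l1, which binds CDC20 to hold it inactive, at 11.58 and 11.17.

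Mitotic kinesins, motor proteins that build and move the spindle, were lower in 9 of 9 measured genes, with a median difference of -0.69. Kif2c was 3.18-fold lower, so that 31.5% of the wild-type level was left, and 62 of the 7626 genes above the filter had a lower difference. Kif20a, which brings the chromosomal passenger complex to the central spindle, was at 10.36 and 9.40, 1.94-fold lower. Apart from Kif2c, the class lay within 2-fold of the wild type. The chromokinesin gene Kif4 had a difference of -0.89, Kif18a, which dampens chromosome movement at the metaphase plate, one of -0.74, and Kif23, the centralspindlin motor, one of -0.69. Kif15, a second motor that keeps spindles bipolar, had -0.60 and the chromokinesin gene Kif22 had -0.56. Kif11, the main motor that pushes spindle poles apart, was at 10.36 and 10.02, a 1.26-fold lower level, and Kif20b, the close relative of Kif20a, was 1.20-fold lower.

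Centromere and chromosome genes were lower in 8 of 8, with a median difference of -0.74. Cdca8 was 2.49-fold lower. Cenpa, the histone H3 variant that marks centromeres, read 9.69 in wild-type and 8.54 in knockout cells, 2.22-fold lower. The proliferation marker gene Mki67 had a difference of -0.95, the kinetochore motor gene Cenpe one of -0.79, and Top2a, which untangles sister DNA, one of -0.69. Birc5, survivin, was at 8.23 and 7.80, and Incenp, the scaffold of the passenger complex, at 9.40 and 9.08. These last were the members nearest 0 in the class, at 1.35-fold and 1.25-fold lower.

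Cytokinesis and spindle assembly genes were lower in 8 of 9, with a median difference of -0.66 and none beyond 2-fold. Prc1, which bundles the central spindle, read 10.70 in wild-type and 9.83 in knockout cells, 1.84-fold lower. Nusap1, a spindle microtubule protein, was at 9.999 and 9.15, 1.80-fold lower. Anln, the contractile ring scaffold anillin, had a difference of -0.74, Tpx2, a spindle assembly factor, one of -0.67, and Racgap1, the partner of Kif23, one of -0.66. The spindle-associated protein genes Aspm (-0.44), Hmmr (-0.35) and Ckap2 (-0.33, at 10.19 and 9.86) were nearer to 0. Ect2 was 1.22-fold higher, and with Plk4 it made up the higher values of the list. Class medians thus ran only from -0.66 to -0.75, a spread smaller than that among the genes within any class.

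**Figure D3:**
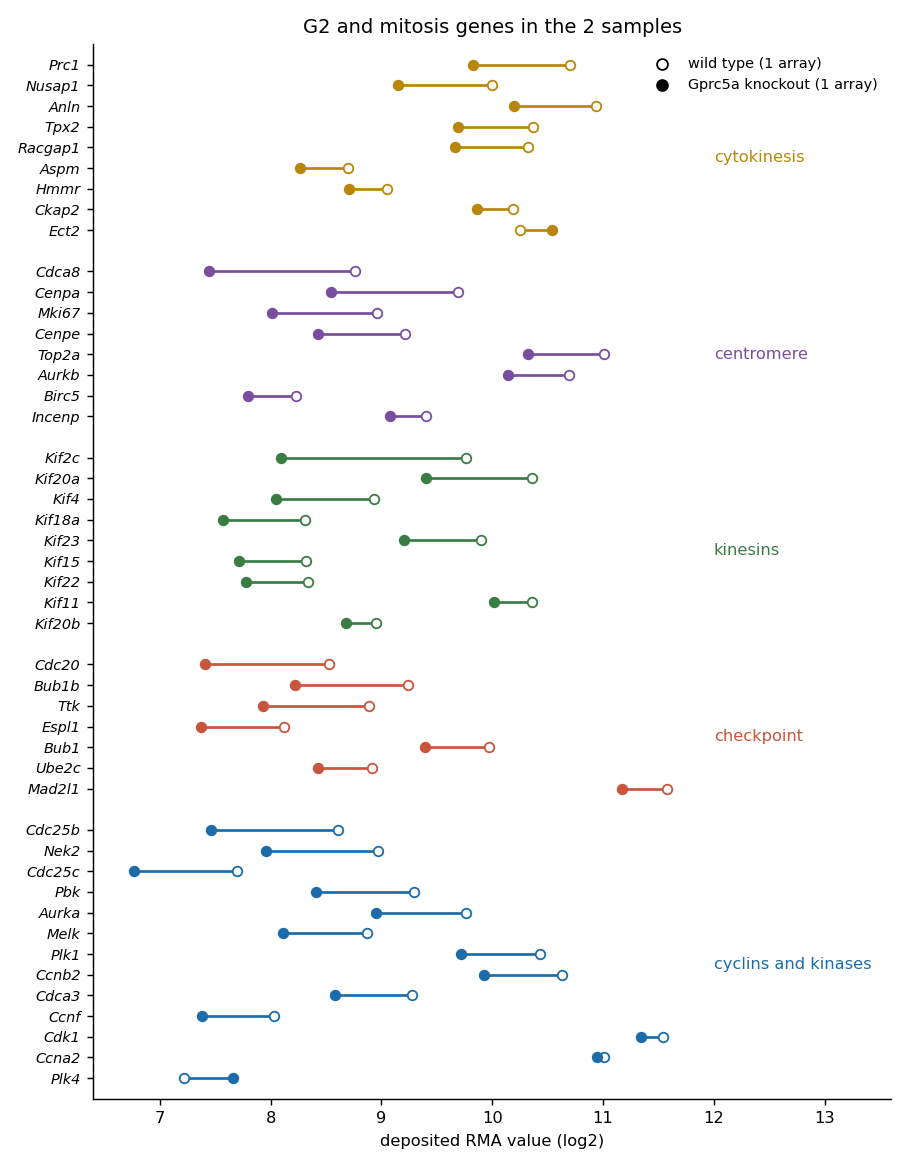
Deposited log2 value (horizontal axis) of each of the 46 G2 and mitosis genes, with open circles for the wild type and filled circles for the knockout, 1 array each, coloured by class. The filled circle lies to the left in 44 genes, and to the right for Plk4 and Ect2.

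Genes whose products work together did not always differ together. The groupings were chosen after the values were seen and serve as description. The central spindle partners Prc1 and Kif4 differed by nearly the same amount, -0.88 and -0.89, as did separase (Espl1, -0.75) and its inhibitor securin (Pttg1, -0.71). Aurora A, its activator gene Tpx2 and the cofactor gene Bora lay between -0.81 and -0.64. In the chromosomal passenger complex the 4 subunits were spread over 0.99, from -1.32 for Cdca8 to -0.32 for Incenp, with the kinase gene Aurkb, Aurora B, at -0.55. In the mitotic checkpoint complex Cdc20 and Bub1b stood at -1.12 and -1.02, and Mad2l1 and Bub3 at -0.41 and -0.18. The centralspindlin genes Kif23 and Racgap1 differed alike, at -0.69 and -0.66, while Ect2, which their product recruits, stood at 0.29. All 3 CDC25 phosphatase genes were lower, Cdc25a included at -0.84. For centriole duplication, where Plk4 acts, Stil stood at -0.94, Cenpj at -0.62, Cep192 at -0.15 and Sass6 at 0.00014.

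**Figure D4:**
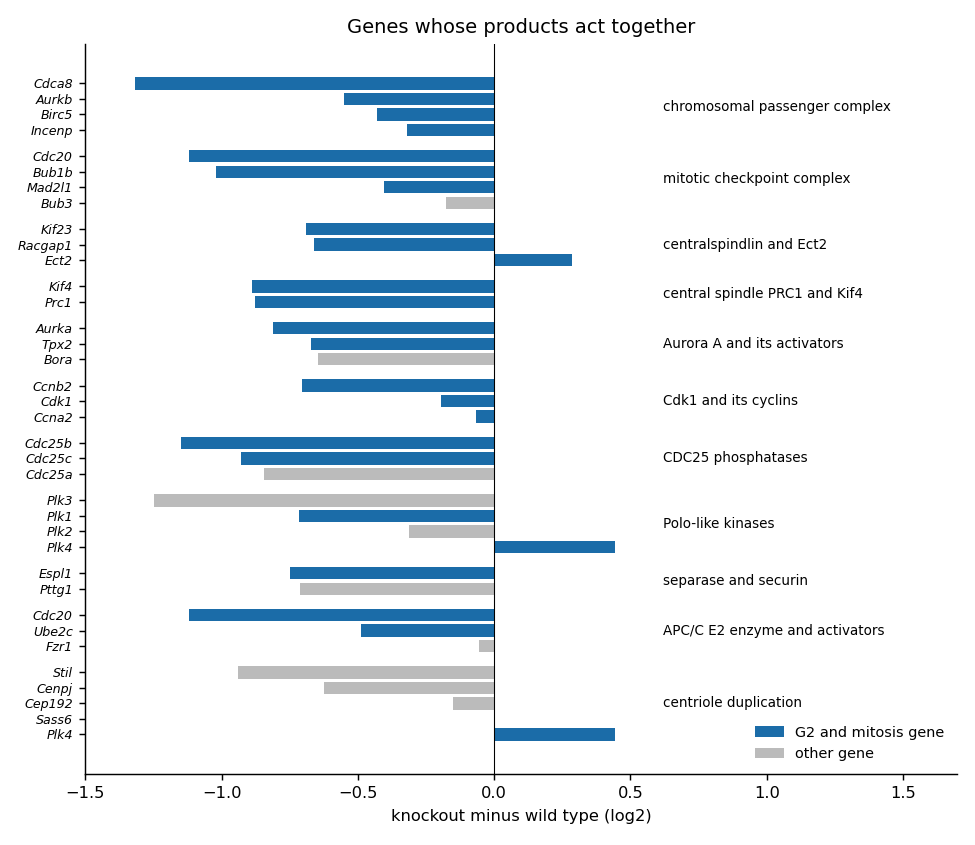
Knockout minus wild-type difference (horizontal axis, log2) of genes grouped by complex or shared step, blue for G2 and mitosis genes of the list and grey for others. Bars are close in length for Prc1 and Kif4 and for Espl1 and Pttg1, and they are spread in the chromosomal passenger complex and point in opposite directions for Kif23 and Ect2.

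Other genes of the mitotic programme, listed by role, had medians nearer to 0. Taken once each, 105 genes of 6 such lists had a median difference of -0.32, with 85 lower, 24 at least 1.5-fold lower and 4 at least 1.5-fold higher. Over all genes, 54.0% were lower, 6.14% at least 1.5-fold lower and 8.08% at least 1.5-fold higher, so these lists also held more lower genes than the whole table. Kinetochore genes, which link chromosomes to microtubules, came closest, with 27 of 29 lower and a median of -0.43. Ndc80, the microtubule-binding subunit, read 9.09 in wild-type and 7.92 in knockout cells, and Ska3 had a difference of -0.86, while Zwint was higher at 0.64 and Cenpt at 0.27. Among 17 condensin and cohesin genes the median was -0.26, with the condensin genes Ncapd2 at -0.73 and Smc4 at -0.55 and the cohesin genes Smc3 and Nipbl each at 0.17. The 15 other genes of the anaphase-promoting complex and its regulators had a median of -0.13, from Pttg1 and Anapc10 (-0.41) at the low end to Anapc16 (0.36) and Anapc13 (0.43). Most of these encode core subunits of the complex, whereas Cdc20 encodes an activator that comes and goes with the cycle.

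The regulators of mitotic transcription and entry showed both directions. Of 19 measured transcription regulators 15 were lower, with a median of -0.39, where 54.0% of all genes were lower. The B-MYB gene Mybl2 was at 9.25 and 8.55, and Tfdp2, a dimer partner of E2F, had a difference of -0.96. The NF-Y subunit gene Nfyb was higher at 0.64 and E2f5 at 0.98. The other NF-Y subunit genes differed in direction, with Nfya at 0.29 and Nfyc at -0.62. Lin54 stood at -0.58, E2f4 at -0.32, Rbl2 (p130) at -0.39 and Rbl1 (p107) at -0.15. The 12 mitotic entry genes split evenly, with 6 lower and 6 higher and a median of -0.10. Their lowest were Cdc25a and Bora, and their highest were Arpp19, an inhibitor of the phosphatase that opposes CDK1, at 0.47, and Gtse1. Gtse1, a microtubule-associated protein gene of G2 that also binds p53, read 8.37 in wild-type and 9.50 in knockout cells, 2.19-fold higher. In a published list of G2/M genes, the 19 measured ones outside the 46 had a median of -0.36, with Ndc80 and Dlgap5 (-1.07) lowest and Tmpo (0.38) and Gtse1 highest.

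Genes of the preceding S phase, from the published companion list, had a median of -0.24 over 36 measured genes, with 30 lower and 6 at least 1.5-fold lower. Both shares were above those of all genes, 54.0% lower and 6.14% at least 1.5-fold lower. The share of genes at least 1.5-fold lower was thus smaller than in the G2 and mitosis list, a contrast that 1 sample per genotype leaves untested. Rpa2, of the single-strand DNA binding complex, had a difference of -1.01 and the fork protein gene Clspn one of -0.88, while Hells (0.21) and the polymerase subunit gene Pold3 (0.28) were higher. Other kinesin genes, listed as interphase kinesins together with light chains and the associated gene Kifap3, gave a comparison by protein family. The list includes Kif2a (-0.37), a relative of Kif2c, so its genes are not all cargo carriers. Of 19 measured, 11 were lower and 8 higher, with a median of -0.08. Their differences ran from -1.07 for Kif5c to 1.19 for Kif9, a range that held 8 of the 9 mitotic kinesins, all but Kif2c. The level filter leaves out both Kif5c and Kif9. Above it, 11 genes ran from Kif3c (-0.54) and Kif1b (-0.52) to Kif3a (0.43) and Kif21a (0.63). That range held 2 of the 9 mitotic kinesins, Kif11 and Kif20b.

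Genes known to hold cells in G2 or to slow division went in mixed directions, with a median of 0.20 over 9 genes, 4 lower and 5 higher. Of these, 3 were at least 2-fold higher and 0 at least 2-fold lower, against 496 and 314 of all 14860 genes. Cdkn1a, the CDK inhibitor p21, read 9.34 in wild-type and 11.24 in knockout cells, 3.75-fold higher. Btg2, an antiproliferative p53 target, was at 8.17 and 10.56, 5.23-fold higher, and Ccng1 at 11.38 and 12.51, 2.19-fold higher. In the opposite direction Sfn, 14-3-3 sigma, which keeps CDK1 in the cytoplasm, had a difference of -0.98, and Gadd45a one of -0.25. The part of these genes in the lower mitotic values was not tested.

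**Figure D5:**
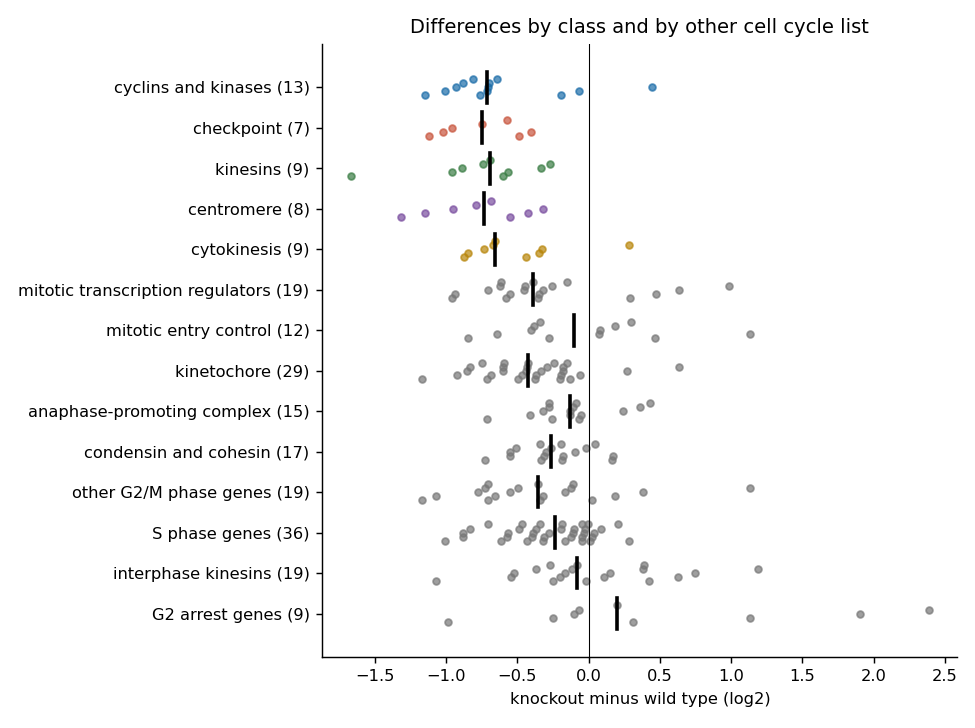
Knockout minus wild-type difference (horizontal axis, log2) of each gene (points), by class of the G2 and mitosis list (coloured) and by other cell cycle list (grey), with the number of genes in brackets and black bars at the medians. The 5 coloured medians lie between -0.75 and -0.66, and the grey ones between -0.43 and 0.20.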

How the data were processed

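Total RNA (250 ng per sample) was labelled with biotin as sense-strand cDNA and hybridised to Affymetrix whole-transcript arrays, per the labels' protocols. The authors deposited log2 values made with RMA and Affymetrix Expression Console, per the submitters' processing notes. No version, filter or annotation build is given in the sources used here. Of 23332 probe sets, 14996 had 1 gene symbol, 1019 had several and 7317 were unnamed here. For 135 genes with several probe sets the one with the highest mean was used. Differences and folds were computed with Python 3.11.15 and pandas 2.3.3. The number of arrays, 2, limits the precision, and no detection calls were used.

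The members, classes, lists and comparisons were chosen with earlier results of these data known. Named genes were the 2 lowest and 2 highest differences of each class and, above the level filter, of each other list, with all other members by value and further genes chosen after their values were seen. The S phase and G2/M lists follow published phase lists, less the 46 genes. Lists can share genes. Promoters on mouse chromosome 18 were not printed. The counting was tested on simulated data. Alternatives were a background floor, 2 rescalings, the mean of probe sets and the level filter.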

Additional observations from a re-analysis of the deposited data

How the results depend on the processing

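The 18 summary values of the G2 and mitosis genes, their classes and the other lists were recomputed under 5 alternatives. A median was taken as moved when it shifted by more than 0.1 on the log2 scale. A count was taken as moved when it changed by a ratio above 1.5, so a change from 7 to 10 was not called moved. All 46 genes are above the level filter, none is at or below background and only Plk1 has several probe sets, so for the list and its classes only the 2 rescalings could move most values. The one summary that moved was that of mitotic entry control, with a median of -0.28 over genes above the level filter in place of -0.10, which left out the dim gene Cks2 (2.05 and 2.24). The number of lower genes was 44 under both rescalings. Of all genes, 61.6% were lower with column medians subtracted and 58.5% with columns quantile-normalized again. Above the filter the shares were 54.8% and 53.3%. Genes at least 1.5-fold lower numbered 30 to 33 and genes at least 2-fold lower 7 to 10. The last count was 10 under both rescalings. These moved the median of all genes by -0.06 (column medians subtracted) and -0.03 (quantile-normalized again), so part of the larger counts goes with that shift. The median of the list ran from -0.76 to -0.69. Plk4 and Ect2 stayed higher under both, at 0.38 and 0.23 with column medians subtracted and 0.33 and 0.29 with columns quantile-normalized again. Plk1 was -0.61 as a mean of its probe sets. No paired analysis was possible because each genotype has 1 sample. Quantile normalization within RMA equalises the overall level of the arrays, and RMA compresses ratios of dim genes.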

Other observations

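The neighbours of the G2 and mitosis genes on the chromosomes had a median difference near 0, with large differences in both directions. The 46 genes lie on 17 chromosomes, with at most 8 on one of them, chromosome 2. The 92 measured genes next to them in RefSeq order on GRCm38.p6, list members left out, had a median difference of -0.0041, with 46 lower and 46 higher. Of the 92, 9 were at least 1.5-fold lower and 11 at least 1.5-fold higher, against 6.14% and 8.08% of all genes. Among the 57 neighbours above the level filter the median was 0.098. There 6 were at least 1.5-fold lower and 9 at least 1.5-fold higher, against 6.69% and 9.66% of genes above the filter. All of these shares were above those backgrounds. Low neighbours included Elovl4 (-1.29), next to Ttk, and Tle3 (-1.21), next to Kif23. The measured neighbours of Kif2c, the lowest of the list, are Plk3, a stress-responsive Polo-like kinase gene with a difference of -1.25, and Tmem53, with 0.37. Those of Mki67 are the DNA repair gene Mgmt (1.82) and Ptpre (-0.019), and those of Plk4 are Mfsd8 (1.48) and Hspa4l (-0.25).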
